A study of Mus musculus with 2 samples.

Results

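The Hox genes of clusters A to D encode homeodomain transcription factors, and the 39 protein-coding genes whose names are Hoxa, Hoxb, Hoxc or Hoxd followed by a number were taken from the GENCODE M21 annotation, out of 21755 protein-coding genes on the X chromosome and the 19 autosomes. They fall into 11 Hoxa genes (chromosome 6, 52155590 to 52260880, 105 kb), 10 Hoxb genes (chromosome 11, 96194316 to 96368256, 174 kb), 9 Hoxc genes (chromosome 15, 102921103 to 103036852, 116 kb) and 9 Hoxd genes (chromosome 2, 74668310 to 74765142, 96.8 kb). All coordinates are in mm10. Chromatin accessibility was measured by ATAC-seq, in which the Tn5 transposase cuts open DNA, in granulocyte monocyte progenitors (GMP), which give rise to neutrophils and monocytes. The cells came from male C57BL/6J mice of 5 to 6 weeks, carried no treatment in the labels, and formed 1 group with 2 biological replicates of 50000 cells each that share a donor label. The sources used here do not say how the cells were isolated or whether a replicate pooled several animals, so the spread between the replicates may be in part technical.

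Hox genes lie in the clusters in the order of their paralog groups, numbered 1 to 13, and are switched on in that order along the body axis of the embryo. In blood, Hoxa genes such as Hoxa9 act in stem and progenitor cells, together with cofactors of the TALE class such as Meis1, and are activated by MLL fusion proteins in leukaemia. Polycomb complexes keep the clusters silent where they are not used, and CTCF sites divide the clusters into chromatin domains.

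A promoter was called open where the summit of an accessible region lay within 1 kb of any annotated transcription start site (TSS) of the gene. The series-level list, made from both replicates, held 75148 regions, of which 38 lay within the 4 clusters or 50 kb on either side. The fold given with a region is its enrichment as the authors deposited it, and is used only to rank and describe regions within a list. The files give no read counts, so depth is unknown, and a promoter called closed is one without a summit that passed the threshold of the list. With 1 group there was no comparison between conditions, and genes of a cluster share their chromatin, so counts are given beside the same counts over all genes, without a test. Of the marker genes checked, 14 of 15 GMP and myeloid genes were open in the series-level list (Prtn3 was not), where 62.7% of all protein-coding genes were. So were 4 of 5 stem and multipotent, 2 of 4 erythroid, 2 of 3 megakaryocyte, 2 of 4 B cell and 0 of 4 T cell genes, with the erythroid genes Klf1 and Hba-a1 and the B cell gene Cd79a among the closed ones. The open erythroid, megakaryocyte and B cell genes, 2 of each, were open in both replicates, with a median promoter fold of 11.0, 10.3 and 12.2, against 7.16 for the open GMP and myeloid genes. What cells of those other types contributed to the Hox regions was not tested.

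The sequences that follow show the region with the highest fold inside each cluster, 100 bases on either side of its summit. They are joined by a promoter that was closed, that of Hoxa13, 100 bases on either side of its TSS, chosen after the values were seen because it is as rich in CpG as the open Hoxa4 promoter. All are read 5′ to 3′ on the plus strand of GRCm38.p6, the assembly of mm10. In the Hoxa4, Hoxa13 and Hoxb1 sequences capitals mark CpG dinucleotides, and in the other 2 a match to a short core of the CTCF motif described further on.
Hoxa4 promoter region, chr6:52191861-52192061, fold 15.2: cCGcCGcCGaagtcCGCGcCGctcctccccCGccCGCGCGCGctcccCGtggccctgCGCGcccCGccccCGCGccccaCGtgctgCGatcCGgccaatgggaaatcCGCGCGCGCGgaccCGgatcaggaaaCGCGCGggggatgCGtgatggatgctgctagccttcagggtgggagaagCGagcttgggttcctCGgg
Hoxa13 TSS, chr6:52260780-52260980, closed: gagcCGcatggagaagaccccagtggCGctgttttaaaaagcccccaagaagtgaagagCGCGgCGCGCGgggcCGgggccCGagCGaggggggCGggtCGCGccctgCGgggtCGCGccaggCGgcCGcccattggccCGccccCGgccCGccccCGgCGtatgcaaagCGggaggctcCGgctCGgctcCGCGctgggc
Hoxb1 promoter region, chr11:96366149-96366349, fold 10.4: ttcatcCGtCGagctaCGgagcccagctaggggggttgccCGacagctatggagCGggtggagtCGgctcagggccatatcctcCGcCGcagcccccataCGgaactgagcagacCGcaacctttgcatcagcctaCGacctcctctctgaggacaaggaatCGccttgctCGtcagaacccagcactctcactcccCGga
Hoxc region upstream of Hoxc8, chr15:102987514-102987714, fold 10.4: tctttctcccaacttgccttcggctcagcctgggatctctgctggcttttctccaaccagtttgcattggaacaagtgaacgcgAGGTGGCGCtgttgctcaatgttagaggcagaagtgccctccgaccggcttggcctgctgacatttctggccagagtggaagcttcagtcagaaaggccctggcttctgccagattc
Hoxd region in an exon of Hoxd3os1, chr2:74715864-74716064, fold 12.6: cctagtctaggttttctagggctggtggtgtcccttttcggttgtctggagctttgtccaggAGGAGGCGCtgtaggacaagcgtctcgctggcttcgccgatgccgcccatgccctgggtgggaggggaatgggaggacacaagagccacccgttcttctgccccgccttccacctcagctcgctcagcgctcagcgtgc

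The open Hoxa4 window held 32 CpG dinucleotides in 201 bases, and the closed Hoxa13 window 28. Their GC contents were 75.1% and 76.6%. The open Hoxb1 window, which lies in coding sequence of its gene, held 14.

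Most Hox promoters were closed in the series-level list. Of the 39 Hox genes 13 (33.3%) had an open promoter in the series-level list, against 62.7% of all protein-coding genes. The share ran from 6 of 11 Hoxa genes (54.5%) through 3 of 9 Hoxc (33.3%) and 3 of 10 Hoxb genes (30.0%) to 1 of 9 Hoxd genes (11.1%). This order did not hold in the looser list described further on, where it was Hoxa (81.8%), Hoxd (66.7%), Hoxc (55.6%) and Hoxb (5 of 10). In the list of replicate 1, 13 Hox genes (33.3%) were open, against 61.4% of all genes, and in that of replicate 2, 11 (28.2%) against 58.1%. Both replicates had an open promoter at 11 Hox genes (28.2%), against 57.5% of all genes. The 13 genes used 17 promoter regions, since 5 genes had a pair of regions and 1 region lay at the starts of both Hoxc10 and Hoxc5. The median of the highest promoter fold per gene was 8.11 over the open Hox genes and 10.2 over all open genes, and 2 of the 13, Hoxa4 and Hoxb1, lay above the latter.

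CpG-rich promoters carried most of the contrast with other genes. A promoter was counted as CpG-rich where the 500 bases on either side of the start of a principal transcript, the isoform the annotation marks as the main one, had a GC content of at least 50% and an observed to expected CpG ratio of at least 0.6. Of the 39 Hox genes 26 had such a promoter and 7 of these (26.9%) were open, while 90.7% of the 10386 CpG-rich genes were. Hox genes made up 0.25% of the CpG-rich genes and 1.97% of the 965 CpG-rich genes that were closed (19 genes). Among the open ones were Hoxa4, Hoxa7, Hoxa10, Hoxa11, Hoxb5 and Hoxd11. By cluster 5 of 10 genes with a CpG-rich promoter were open in Hoxa, 1 of 5 in Hoxb, 0 of 4 in Hoxc and 1 of 7 in Hoxd. Openness was counted at any TSS, and so not always at the principal start where CpG was measured. At principal starts alone 6 of the 26 (23.1%) were open, and Hoxd11 was not. Among the 13 Hox genes without a CpG-rich promoter 6 were open (46.2%), against 37.2% of all such genes. The shares of CpG-rich and other genes are set side by side in the bar chart of open promoters.

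**Figure D1:**
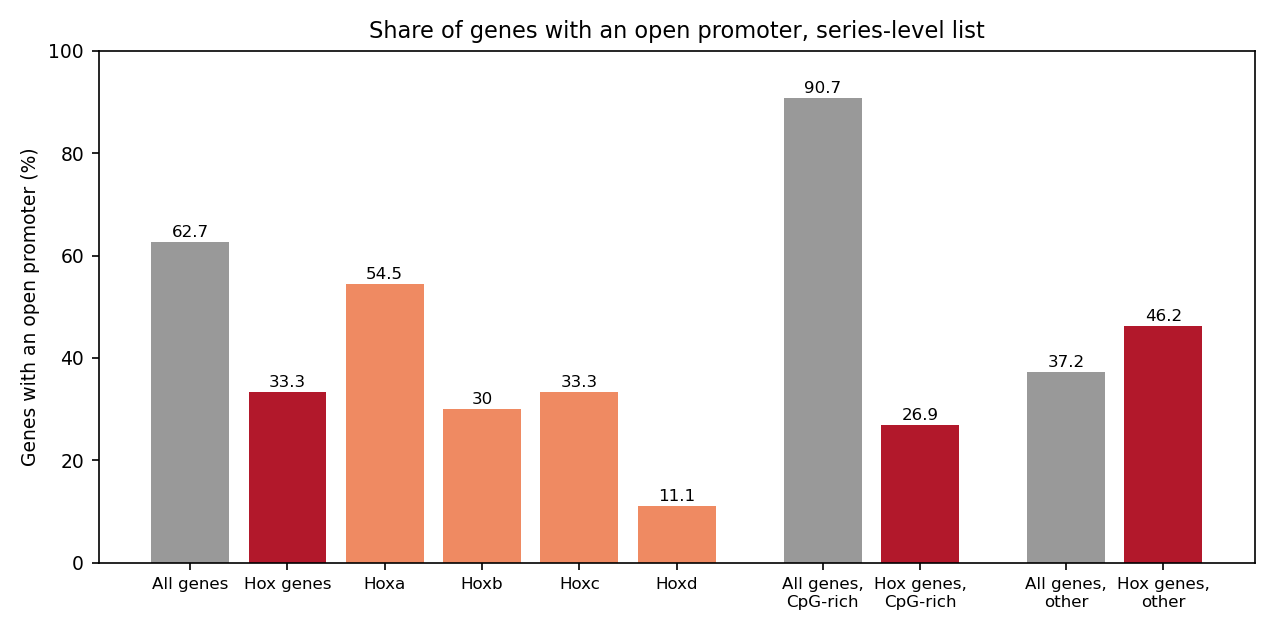
Bars give the percentage of genes (y axis) with a summit within 1 kb of a TSS in the series-level list, for all protein-coding genes (grey), all Hox genes (red) and each cluster (orange), and again for genes with and without a CpG-rich promoter. Hox genes with a CpG-rich promoter stand at 26.9% beside 90.7% of all CpG-rich genes, while the other Hox genes stand at 46.2% beside 37.2%.

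Hoxa4 had the highest fold of all 38 regions at the Hox clusters. Its region was at 15.2 in the series-level list, 17.4 in replicate 1 and 10.3 in replicate 2, and lay 208 bp upstream of the TSS. It was also the 1 region of the 38 above the 90th percentile of all regions (a fold of 13.4). Both of its neighbours with a similar paralog number, Hoxa3 and Hoxa5, were closed in the series-level list. For Hoxa3 the nearest summit was 1375 bp inside the gene (fold 7.93), and Hoxa5 was open in the thresholded list of replicate 1 alone (fold 7.65).

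From Hoxa7 to Hoxa11 every Hoxa gene was open, and these include the genes best known from leukaemia. Hoxa7 had a region at its principal TSS (91 bp upstream, fold 5.88), in the thresholded list of replicate 1 (6.48) and not in that of replicate 2. Another at the start of a longer coding transcript had a fold of 5.98 and was found in both (5.75 and 5.37). Hoxa9, a leukaemia gene that supports the self-renewal of progenitors, had low folds, 4.69 in the series-level list with 5.53 in replicate 1 and 3.60 in replicate 2. This summit lay 10 bp upstream of the start of the shorter coding transcript Hoxa9-202, and 1171 bp inside the gene as counted from the principal TSS. At the principal TSS itself (310 bp downstream) the region had a fold of 4.16 and was in neither replicate's thresholded list, although both looser lists held it (4.18 and 3.49).

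Hoxa10, a regulator of myeloid and uterine development, had a region near the start of its longer transcripts with a fold of 9.35 (10.9 in replicate 1 and 6.90 in replicate 2). Its principal TSS had a weaker one in coding sequence, 670 bp downstream (5.55 in the series-level list, 6.93 and 4.46 in the replicates). Hoxa11, which patterns limb and uterus, had a fold of 8.16 at 798 bp upstream of its TSS, in an exon of the antisense gene Hoxa11os. It had 9.43 in replicate 1 and no promoter region in the thresholded list of replicate 2. The series-level value of Hoxa10 stood close above that of Hoxa11. Both replicates' looser lists held these regions, at 10.9 and 6.90 for Hoxa10 and at 9.43 and 6.32 for Hoxa11. An accessible region carries no strand, so those of Hoxa11 and Hoxa11os cannot be told apart.

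Hoxb1, Hoxb4 and Hoxb5 were the open genes of the Hoxb cluster. Hoxb1, which patterns the hindbrain, had a fold of 10.4 (10.5 in replicate 1 and 7.58 in replicate 2), with the summit in its coding sequence 497 bp from the principal TSS. Hoxb4, known for expanding blood stem cells when overexpressed, had a region 366 bp downstream of its TSS, in an exon, at a fold of 6.93 (7.10 and 6.45). Its other region lay 508 bp upstream at a fold of 5.62 (4.78 and 5.68). Hoxb5, a marker of long-term stem cells in mice, had a fold of 8.19 (8.91 and 6.39) at 260 bp upstream of the principal TSS. All 4 of these promoter regions were present in both replicates.

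Of the open Hoxc and Hoxd genes, Hoxc10 had a region in both replicates just upstream of its only TSS, while Hoxc5 and Hoxd11 were open only through noncoding transcripts and Hoxc4 was in neither replicate's thresholded list. Hoxc10, a gene of the hindlimb and lumbar spinal cord, had a fold of 8.11 (8.96 in replicate 1 and 6.41 in replicate 2) at 202 bp upstream of its TSS. The same region lay 849 bp upstream of a noncoding Hoxc5 transcript, and this alone made Hoxc5 open, with the summit 47221 bp from its principal TSS. Hoxc4 had a fold of 5.63 at 180 bp upstream of its TSS and was in neither replicate's thresholded list, with 5.67 and 5.01 in the looser lists. Hoxd11, a limb gene, had a fold of 7.34 (6.92 and 6.22) at 528 bp downstream of the start of a noncoding transcript, 2238 bp upstream of its principal TSS. Counted at principal starts only, 11 Hox genes (28.2%) and 0 of 9 Hoxd genes were open, against 59.0% of all genes. Counted at the starts of protein-coding transcripts, also without Hoxc5 and Hoxd11, 11 Hox genes were open against 61.4% of all genes. The replicate values of the open genes are drawn in the plot of promoter folds by list.

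**Figure D2:**
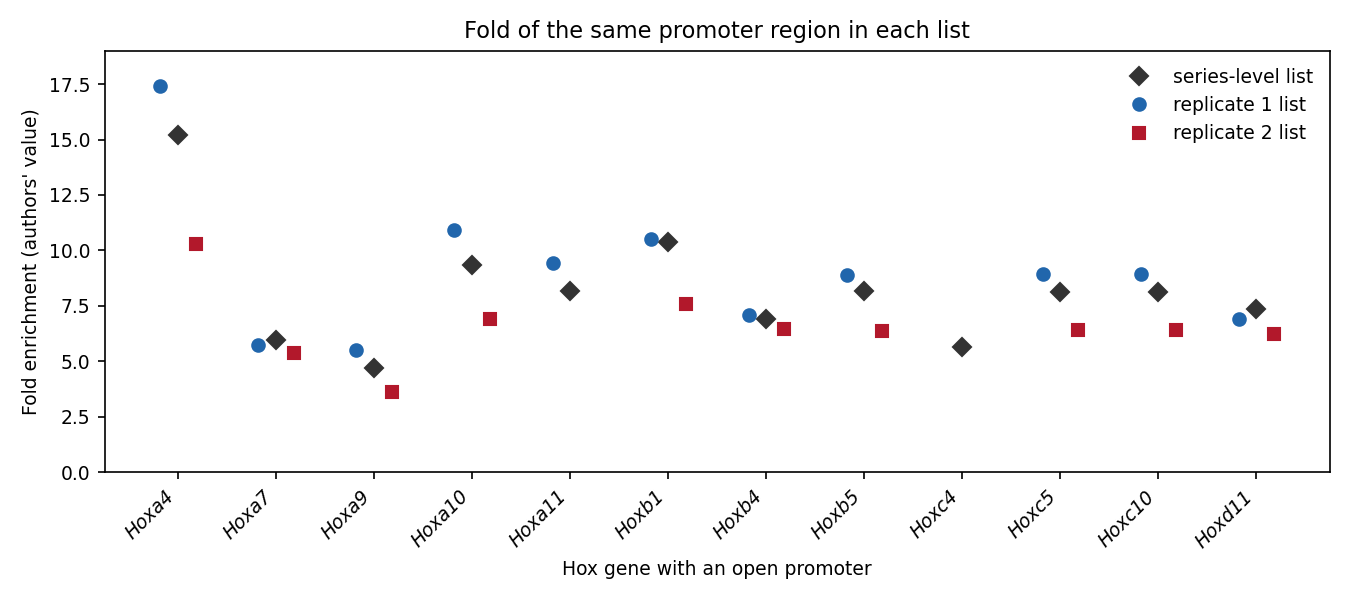
Points give the authors' fold enrichment (y axis) of the promoter region with the highest fold of 12 of the 13 open Hox genes (x axis), in the series-level list and, where a region overlaps it, in the list of each replicate. Among those drawn, Hoxa4 is highest in all 3 lists (15.2, 17.4 and 10.3), Hoxa9 is lowest in all 3 (4.69, 5.53 and 3.60) among the genes with a point in each, Hoxa11 has no point for replicate 2 and Hoxc4 none for either replicate.

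By paralog group, openness did not follow the numbering in a simple way. Of the genes in groups 1 to 4, 5 of 12 were open (41.7%), in groups 5 to 8, 3 of 11 (27.3%), and in groups 9 to 13, 5 of 16 (31.2%). These shares rest on 12, 11 and 16 genes, and 1 or 2 genes move each by many percentage points. In the looser list they were nearly equal, at 66.7%, 63.6% and 62.5%. The groups also differed in CpG-rich promoters, with 6 of 12, 9 of 11 and 11 of 16 genes. In group 1, Hoxb1 was open and Hoxd1 was not, and group 4 had 3 of 4 genes open (Hoxa4, Hoxb4 and Hoxc4, not Hoxd4). Group 10 had 2 of 3 (Hoxa10 and Hoxc10) and group 11 had 2 of 3 (Hoxa11 and Hoxd11). Group 5 had Hoxb5 and Hoxc5 open, groups 7 and 9 had their Hoxa gene alone, and no gene was open in groups 2, 3, 6, 8, 12 and 13 (17 genes).

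**Figure D3:**
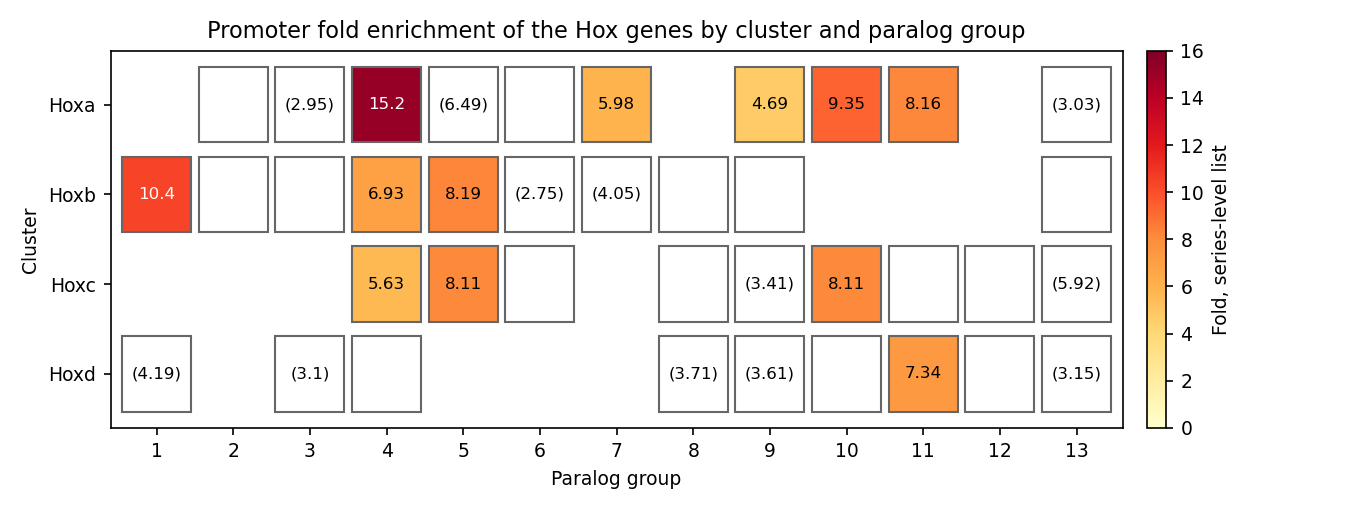
Each box is a Hox gene (38 of the 39 are drawn), placed by paralog group (x axis) and cluster (y axis), and positions without a gene are blank. Coloured boxes carry the series-level fold of an open promoter, and white boxes are closed, with the fold in parentheses where the looser list holds a promoter region. No gene of groups 2 and 12 has a value, while groups 4, 5, 10 and 11 have coloured boxes in more than 1 cluster.

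Many closed Hox promoters had a weak region in the authors' looser list of replicated peaks. Of the 26 closed genes 12 were open there, which brought the total to 25 of 39 (64.1%), against 70.4% of all genes. For CpG-rich promoters the looser list gave 69.2% of Hox genes (18 of 26) against 97.2% of all. The genes that it added were spread over the clusters, with 5 in Hoxd (Hoxd1 at a fold of 4.19, Hoxd3 at 3.10, Hoxd8 at 3.71, Hoxd9 at 3.61 and Hoxd13 at 3.15). In Hoxa it added Hoxa3 (2.95), Hoxa5 (6.49) and Hoxa13 (3.03), in Hoxb Hoxb6 (2.75) and Hoxb7 (4.05), and in Hoxc Hoxc9 (3.41) and Hoxc13 (5.92). Outside Hoxa5 and Hoxc13 these folds were all below that of the lowest open Hox gene, Hoxa9 (4.69 in both series-level lists). The other 14 genes had no promoter region in this list either, namely Hoxa2, Hoxa6, Hoxb2, Hoxb3, Hoxb8, Hoxb9, Hoxb13, Hoxc6, Hoxc8, Hoxc11, Hoxc12, Hoxd4, Hoxd10 and Hoxd12. Values near the 1 kb limit were 798 bp for Hoxa11 and 849 bp for Hoxc5 inside it, and 1134 bp for Hoxc6 and 1375 bp for Hoxa3 outside it.

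Accessible regions were most numerous at Hoxa in the series-level list, though not among the regions with higher folds. With 50 kb of flank on either side there were 16 regions at Hoxa, 13 at Hoxb, 4 at Hoxc and 5 at Hoxd. Inside the clusters, from the first to the last Hox gene, this was 12.3 regions per 100 kb for Hoxa, 5.75 for Hoxb, 3.46 for Hoxc and 3.10 for Hoxd. Over all 27247 bins of 100 kb the median was 1 region, and over the 10699 bins that hold the start of a protein-coding gene it was 4, with an upper quartile of 8. The density of Hoxa was reached in 2.90% of all bins, that of Hoxb in 20.3%, and those of Hoxc and Hoxd in 30.3%. Hoxc and Hoxd were therefore below the median of the bins with a gene, and Hoxa above their upper quartile. A single gene start is enough for such a bin, while Hoxa holds 11 Hox genes, and bins of like gene density were not compared. Of the 38 regions 17 were Hox promoter regions, 10 of them at Hoxa, 4 at Hoxb, 2 at Hoxc and 1 at Hoxd. At or above the median fold of all regions, Hoxb had 9 regions, Hoxa 5, Hoxd 3 and Hoxc 2. The median fold was 7.08 at Hoxa, 8.24 at Hoxb, 6.88 at Hoxc and 9.21 at Hoxd.

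**Figure D4:**
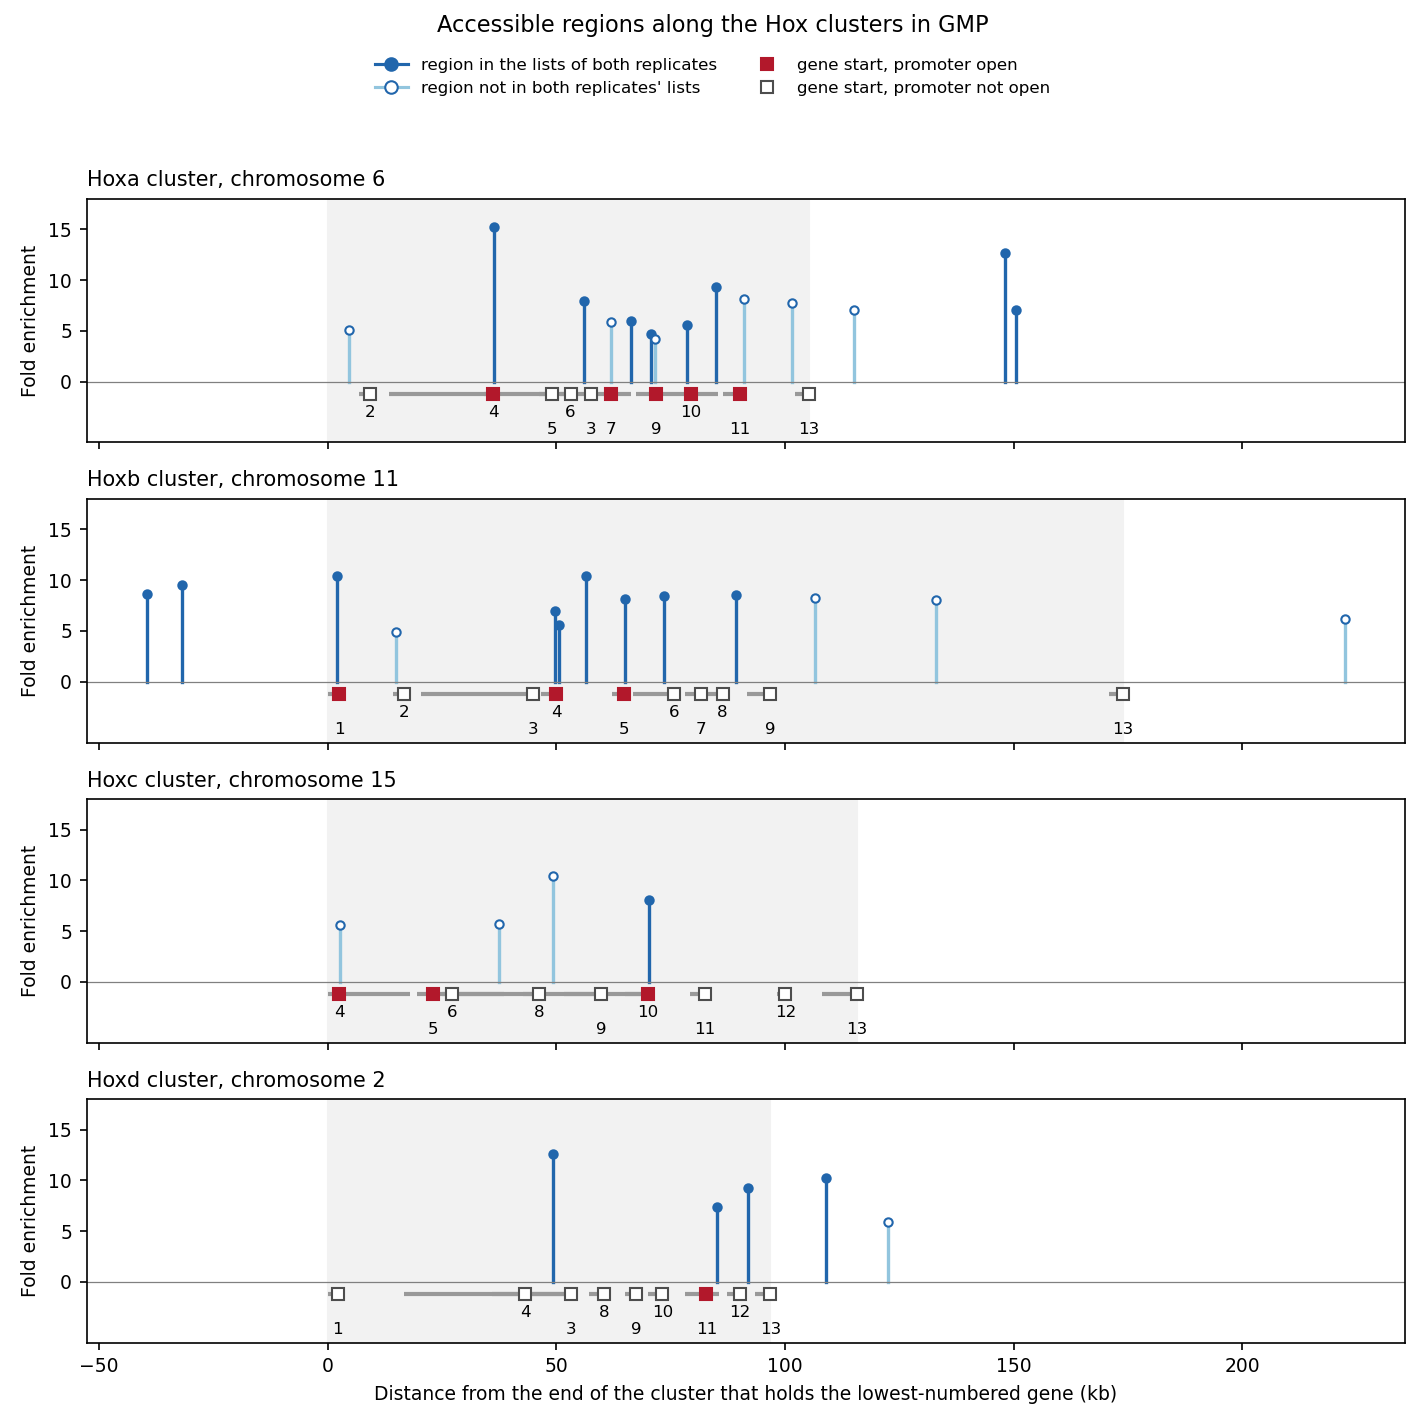
For each cluster, stems give the fold enrichment of a region (y axis) at its summit, by distance in kb (x axis) from the end of the cluster with the lowest-numbered gene, with filled circles for regions in the lists of both replicates and open circles for the others. Drawn are 36 of the 38 regions and 38 of the 39 genes. Squares give 1 principal start per gene with its paralog number, red where the promoter was called open at any TSS. The shaded span is the cluster. Hoxa shows 11 regions inside its span and Hoxd 3. Inside the span, the longest stretch without a region is on the side of groups 11 to 13 in Hoxc and around Hoxd1 and Hoxd4 in Hoxd.

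Inside its limits, from the first to the last Hox gene, each cluster had a stretch of 31.7 to 49.2 kb without a region. Those of Hoxb, Hoxc and Hoxd were cut at a cluster limit and ran on into the flank, so their full lengths are greater. Whether such stretches are longer than elsewhere in the genome was not tested. Over all bins of 100 kb the median was 1 region, and over those with a gene start 4. At Hoxd it was 49.2 kb on the side of low numbers (74715964 to 74765143), which holds the start of a principal transcript of each of Hoxd1, Hoxd3 and Hoxd4. At Hoxc it covered 45.5 kb on the opposite side (102921103 to 102966594), with Hoxc11, Hoxc12 and Hoxc13. At Hoxb the longest was the 40.8 kb next to Hoxb13 (96194316 to 96235111). At Hoxa it was 31.7 kb (52160307 to 52191961), which held the start of Hoxa2 and ended at the Hoxa4 region. These stretches are gaps of the series-level list, and the looser list had promoter regions at the starts of Hoxc13 and Hoxd1.

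The regions away from Hox promoters had folds like those of other such regions. Their median was 8.24 over 21 regions, and over all regions of the list outside promoters it was 7.93. The Hox promoter regions had a median of 6.93 and all promoter regions 8.78. The highest non-promoter fold inside a cluster was the Hoxd region at 12.6 (14.6 in replicate 1 and 9.53 in replicate 2). It lay in an exon of the antisense RNA Hoxd3os1, 32 bp downstream of its TSS, and in introns of long Hoxd3 and Hoxd4 transcripts. The other regions with high folds at Hoxd were one in coding sequence of Evx2, a homeobox gene beside Hoxd13 (10.2 in the series-level list, 11.2 and 7.93 in the replicates), and one 1856 bp upstream of Hoxd12 (9.21, with 10.3 and 7.33).

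At Hoxa the highest fold after Hoxa4 was that of a flank region 42750 bp beyond the Hoxa13 TSS, on the side of the homeobox gene Evx1 (12.7, with 14.0 in replicate 1 and 9.94 in replicate 2). At Hoxb, besides Hoxb1, they were an intergenic region 6543 bp upstream of Hoxb4 that was 980 bp wide (10.4, with 10.8 and 8.83) and a flank region 33865 bp downstream of the nearest Hoxb1 TSS (9.54, with 9.92 and 7.74). At Hoxc they were a region 2993 bp upstream of Hoxc8, the Hoxc10 promoter and a region 1134 bp into a Hoxc6 transcript. The region upstream of Hoxc8 had 10.4, with 10.8 in replicate 1, and in replicate 2 only the looser list held it (8.11). The Hoxc6 region had 5.65 and was in neither replicate's thresholded list. Over the 38 regions the median fold was 8.01 and the median width 368 bp, against 8.09 and 473 bp over all regions.

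Of the 38 regions 24 (63.2%) were found in the thresholded lists of both replicates, against 66.1% of all regions. By cluster this was 10 of 16 at Hoxa, 9 of 13 at Hoxb, 1 of 4 at Hoxc and 4 of 5 at Hoxd. Another 8 were in the list of replicate 1 only, 1 in that of replicate 2 only and 5 in neither. All 38 were in both replicates' looser lists. The series-level list was itself drawn from a ranking made between the replicates, so this is no independent support. The same share over all regions was not counted. The 24 shared regions had a median series-level fold of 8.51 and the other 14 one of 6.07. Over the 24 shared regions the folds of the replicates ranked alike (Spearman's rho 0.88, a description over regions of the same 2 libraries), as they did over all shared regions (0.89). Hoxc was the cluster where a single replicate mattered most: its list held 2 regions in replicate 1 and 1 in replicate 2.

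The letters around the summits were rich in CpG. Around the summit, with 100 bases on either side, 25 of 38 regions (65.8%) met the GC and CpG limits given above, against 17.0% of all regions, and the median GC content was 60.7% against 51.2%. The 25 were 14 of the 17 Hox promoter regions and 11 of the 21 others. Promoter regions were a smaller part of all regions (17403 of 75148). The CpG-rich share of all promoter regions and of all others was not counted. On both strands of the same windows, the 12-letter CTCF consensus was in 0 of the 38 and in 5.41% of all regions, and the HOX-PBX site TGATTNAT in 0 and in 1.73%. The MEIS site TGACAG was in 5 (13.2%, against 16.1%), the PU.1 site GAGGAAGT in 2 (5.26%, against 10.1%), the RUNX site TGTGGT in 2 (5.26%, against 23.9%) and the CEBP site TTGCNNAA in 4 (10.5%, against 14.9%). Over all promoter regions these shares were 12.5% for MEIS, 4.74% for PU.1, 12.3% for RUNX and 8.14% for CEBP, so that of the 4 only the RUNX share of the 38 regions was below both, on 2 matches. One of the PU.1 matches lay at the promoter region of Hoxc4. GC content differed between the sets, and its part in these shares was not tested.

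A shorter CTCF core, AGGNGGCGC, was searched after the consensus had given no match. It was in 6 of the 38 regions (15.8%) and in 3.43% of all regions, and in 5.36% of all promoter regions. They were the regions upstream of Hoxc8 and in Hoxd3os1 printed above, the promoter regions of Hoxb5 and Hoxc10, a region 9714 bp upstream of Hoxb9 (8.24) and one beyond the end of Hoxa13 (7.71). The latter lay 3681 bp downstream of the nearest Hoxa13 start, in an exon of the gene 9530018H14Rik. It was in the thresholded list of replicate 2 alone (6.58). All 4 clusters held at least 1 of the 6. A match is a run of letters and does not show that CTCF was bound. The core holds a CpG, and 65.8% of the 38 regions were CpG-rich around the summit against 17.0% of all regions. The part of base composition in the share with this core was not tested.

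Noncoding RNAs of the clusters were near a summit in 3 of 14 cases. Of the 8 long noncoding genes 2 had a summit within 1 kb of a start, against 27.5% of all such genes, and of the 6 miRNA genes 1, against 13.3%, so both counts were near the background. Among them were Hoxd3os1 and Mir10a, a microRNA that lies upstream of Hoxb4, with a summit 594 bp downstream of its start in the upstream Hoxb4 region. Its paralog Mir10b in the Hoxd cluster had its nearest summit 10106 bp upstream, at the Hoxd3os1 region. Hotair, which lies between Hoxc11 and Hoxc12, was 18864 bp from a summit, and Hottip, beyond Hoxa13, was 5654 bp from one. Mir196a-1, Mir196a-2 and Mir196b had none closer than 3105 bp. The mature 5p sequences of the miR-10 pair (RefSeq, GRCm38.p6) are printed because this pair of paralogs differed in its nearest summit. Capitals mark the seed, bases 2 to 8, which the 2 share.
miR-10a-5p: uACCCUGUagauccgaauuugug
miR-10b-5p: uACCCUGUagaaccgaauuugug

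Genes that work with or upon the Hox clusters were mostly open. All 9 TALE cofactors had an open promoter in the series-level list, 7 of them in both replicates. Among the highest folds were those of Pknox1 (14.1, with 18.1 in replicate 1 and 9.52 in replicate 2) and Pbx3 (12.7, with 13.7 and 10.4). Meis1, the partner of Hoxa9, had 7.53 (7.43 and 7.36). A list of 12 genes covered the trithorax and MLL complexes, which keep Hox genes active, and linked factors such as Dot1l and Aff4. All 12 were open in the series-level list and in both replicates, led by Ash2l (14.0), Rbbp5 (13.4) and Dpy30 (11.7). Kmt2a, the MLL gene itself, was at 9.27. Of 17 Polycomb genes 16 were open, led by Phc2 (13.6), Ezh2 (12.7), the H3K27 methyltransferase, and Mtf2 (12.2), and Pcgf2 was closed. These counts stand beside 62.7% of all genes and 90.7% of the genes with a CpG-rich promoter. How many of the listed genes have a CpG-rich promoter was not tested.

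The homeobox relatives of the Hox genes were mostly closed. Of the ParaHox, Evx and Cdx genes 1 of 8 was open in the series-level list, where 62.7% of all protein-coding genes were. This was Gsx1, at a fold of 8.63 (9.83 and 6.28). Gsx2, Pdx1, Cdx1, Cdx2, Cdx4 and the cluster neighbours Evx1 and Evx2 had no open promoter in that list.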

How the data were processed

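ATAC-seq peak lists of 2 GMP replicates were used as deposited, in mm10 per the submitters' README files, which also name each list's type. The sources used here do not give the aligner, the peak caller or any Tn5 shift. As deposited by the authors, a row carries a fold (a ratio of enrichment, with no denominator stated), a −log10 of its q-value and a summit. The deposited ranked list made between the replicates also holds a score from the irreproducible discovery rate. The conservative series-level list holds its rows with a score of at least 540, less 220, none of which lay at a Hox cluster.

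Rows that shared 1 bp or more were joined into regions, keeping the summit and fold of the row with the highest fold (pandas 2.3.3, tested on simulated data). Genes came from GENCODE M21 on GRCm38.p6. A region counted as found in a replicate where its thresholded list overlapped it by 1 bp. The members and lists were chosen with earlier results of these data known. By rule, full values were given for every open Hox gene, the 3 highest regions of each cluster and the 3 highest genes of each list; Meis1 and Kmt2a were named besides, after their values were seen. Some items that this rule covers are not reported here, although the counts include them. The gene named with the closed sequence, and the short CTCF core, were chosen after values were seen. Alternatives changed the list, threshold, replicate, window, TSS set, flank and overlap.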

Additional observations from a re-analysis of the deposited data

How the results depend on the processing

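Of 119 alternative values, 89 stayed within 1.5 times the reported count, and the other 30 follow. In the looser list of replicated peaks there were 25 open Hox promoters in place of 13, with 5 in Hoxb, 5 in Hoxc and 6 in Hoxd, 8 in paralog groups 1 to 4, 7 in groups 5 to 8 and 10 in groups 9 to 13. The same list gave 28 regions at Hoxa, 25 at Hoxb, 14 at Hoxc and 23 at Hoxd, so that the low count of Hoxd depended on the threshold. In the upper part of the regions by fold (at or above the median) 8 Hox promoters were open, 0 of them in Hoxd, 3 in groups 1 to 4 and 3 in groups 9 to 13. In this part 5 regions lay at Hoxa, 2 at Hoxc and 3 at Hoxd. Hoxb had 9 there in place of 13, within 1.5 times, and so held more than Hoxa. With a window of 500 bp 0 Hoxd promoters and 3 of groups 9 to 13 were open, and with 2500 bp 5 in Hoxb, 2 in Hoxd and 5 in groups 5 to 8. For the upper part by fold and for these windows the share of all genes was not counted. Whether the contrast with other genes changed there is therefore unknown. At principal starts, and at starts of protein-coding transcripts (added after the data were seen), 0 Hoxd promoters were open. Hoxd had 3 regions without flanks and 10 with 100 kb flanks. All 38 regions were in both looser replicate lists, against 24 in the thresholded ones, but the series-level list was itself drawn from a ranking between the replicates.

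Leaving out replicate 1 or replicate 2, which here means taking the list of the other, gave 11 to 13 open Hox promoters, and 1 to 2 regions at Hoxc in place of 4, with 1 without replicate 1 and 2 without replicate 2. No paired analysis was possible because the study has 1 group. With 2 replicates, no read counts and no other cell type in the series, neither the depth behind a closed promoter nor a difference between cell types could be measured.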
